A study of Homo sapiens with 9 samples.

Results

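YAP1 and WWTR1 (which encodes TAZ) are paralogous transcription coactivators, TEAD1 and TEAD4 are DNA-binding factors that they use to reach their target genes, and CYR61, CTGF, ANKRD1, AMOTL2, AJUBA and LATS2 are genes commonly read as targets or feedback members of this module. These 10 genes were taken by name from the 26485 genes measured in MDA-MB-231 cells, an established human line of triple-negative breast cancer, with and without knockdown of the acid ceramidase gene ASAH1. All 10 were found and all 10 passed the filter on low values (a normalized count of 10 or more on average). RNA was sequenced in 9 libraries, 3 from cells that stably expressed a non-specific (NS) shRNA, 3 from cells with ASAH1 shRNA #1 and 3 from cells with ASAH1 shRNA #2. The groups share the line and the medium (DMEM with serum and antibiotics), and the hairpin is the 1 difference that the labels give. No time after expression of the hairpin was given, and the cells are compared as stably expressing populations of 1 line. The replicates were described as biological, without a statement that they came from separate transductions, so p-values measure the spread between these libraries.

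In the Hippo pathway, the kinases STK3 and STK4 (MST) with SAV1 activate LATS1 and LATS2 with MOB1, and LATS kinases phosphorylate YAP and TAZ, which are then held in the cytoplasm or degraded. YAP and TAZ that escape this enter the nucleus and bind TEAD factors, which recognise a short GGAATG core. The pathway responds to cell density, the actin cytoskeleton and lipid-linked receptor signals, and in MDA-MB-231 cells YAP and TAZ are known for high activity. This line is known to carry a disrupted NF2, an upstream regulator of LATS kinases. RNA levels do not show phosphorylation or location of the proteins, so the values describe transcripts alone.

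The reads on genes numbered between 30989598 and 34867548 per library with NS shRNA, between 23806003 and 39791698 with ASAH1 shRNA #1 and between 35653318 and 49659106 with ASAH1 shRNA #2. ASAH1 itself was lower with each hairpin, by a log2 fold change of -1.76 with ASAH1 shRNA #1 and -2.63 with ASAH1 shRNA #2. VIM, CD44, EGFR, AXL and KRT18, which mark this line, were read in every library, while the hormone receptor genes ESR1 and PGR had 0 to 2 reads per library. ERBB2, EPCAM and KRT5, which are low in this line, had 1530 to 3581, 652 to 1773 and 45 to 299 reads. Of the 5 leukocyte markers, CD3E and PTPRC stayed between 0 and 8 reads, and the summed level of the list ran from 27.3 to 33.2 CPM (counts scaled to the library total) with NS shRNA, 6.72 to 7.79 with ASAH1 shRNA #1 and 27.1 to 31.3 with ASAH1 shRNA #2, most of it from CD14. The fibroblast list of 5 genes summed to between 31.2 and 36.4 CPM with NS shRNA, between 16.0 and 18.5 with ASAH1 shRNA #1 and between 12.2 and 14.3 with ASAH1 shRNA #2, most of it from PDGFRB (351 to 1066 reads), with LUM at 31 to 140, COL3A1 at 6 to 58, PDGFRA at 1 to 6 and DCN at 0 to 3 reads. The endothelial list of 4 genes summed to between 12.8 and 14.6, between 12.1 and 16.1 and between 5.39 and 6.82, most of it from KDR (143 to 425 reads) and PECAM1 (39 to 102), with VWF at 3 to 14 and CDH5 at 0 to 3 reads. The part of these genes in the results was not tested.

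Positions on hg38 are those of GENCODE v44. YAP1 spans chr11:102110447-102233424 on the plus strand and WWTR1 spans chr3:149517235-149736714 on the minus strand. TEAD1 lies at chr11:12674421-12944737 and TEAD4 at chr12:2959330-3040676, both on the plus strand. The 2 secreted matrix-associated proteins are encoded by CYR61 (CCN1) at chr1:85580761-85584589 on the plus strand and CTGF (CCN2) at chr6:131948176-131951372 on the minus strand. ANKRD1 (chr10:90912096-90921087), AMOTL2 (chr3:134355347-134375479), AJUBA (chr14:22971177-22982551) and LATS2 (chr13:20973036-21061586) are all on the minus strand.

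Upstream sequence is shown for CTGF and ANKRD1, the targets that fell with ASAH1 shRNA #2, and for YAP1, the coactivator that rose with each hairpin. The windows are RefSeq sequence of GRCh38.p14, the 250 bases before the annotated start, read 5′ to 3′ on the strand of the gene, with each GGAATG core in capitals.
CTGF, chr6:131951373-131951622, minus strand: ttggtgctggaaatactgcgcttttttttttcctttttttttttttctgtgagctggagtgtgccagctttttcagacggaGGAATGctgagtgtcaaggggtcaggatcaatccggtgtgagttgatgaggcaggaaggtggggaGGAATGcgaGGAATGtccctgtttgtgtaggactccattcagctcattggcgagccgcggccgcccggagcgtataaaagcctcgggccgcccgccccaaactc
ANKRD1, chr10:90921088-90921337, minus strand: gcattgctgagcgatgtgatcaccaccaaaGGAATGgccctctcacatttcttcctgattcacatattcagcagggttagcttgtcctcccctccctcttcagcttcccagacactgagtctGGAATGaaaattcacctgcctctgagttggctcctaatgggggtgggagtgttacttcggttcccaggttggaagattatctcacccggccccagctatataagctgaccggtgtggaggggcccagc
YAP1, chr11:102110197-102110446, plus strand: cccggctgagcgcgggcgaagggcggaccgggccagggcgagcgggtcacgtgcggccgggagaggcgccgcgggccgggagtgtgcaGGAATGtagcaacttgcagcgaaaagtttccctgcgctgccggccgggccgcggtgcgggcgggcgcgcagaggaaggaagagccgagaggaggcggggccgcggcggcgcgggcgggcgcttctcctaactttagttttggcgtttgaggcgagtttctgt

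CTGF held 3 cores, beginning 169, 104 and 95 bases before the start, and ANKRD1 held 2, at 220 and 128. YAP1 held 1, at 162. The window of CTGF lies within the span of the opposite-strand gene LINC01013 but overlaps no exon, that of ANKRD1 overlaps no gene, and that of YAP1 overlaps an exon of an unnamed opposite-strand transcript. The RefSeq table matched 7 of the 10 genes with 10 windows of 300 bases (250 before and 50 after the start), and both strands were searched. CYR61, TEAD1 and TEAD4 had no window there and were not searched. Single cores were found in a second window of AMOTL2, 69 bases before that start in the opposite orientation, in a second window of AJUBA at 59, and in LATS2 at 10 bases after the start. WWTR1 held none in its windows. In all, 6 of the 10 windows held at least 1 core. Of the 35116 windows in the table, 14.0% held at least 1 core, 1.37% at least 2 and 0.128% at least 3. The AP-1 site TGANTCA, found in 7.71% of windows, occurred once, 195 bases before the start of ANKRD1, and did not overlap a TEAD core, while the CArG box, the site of SRF, was in 1.29% of windows and in 0 of the 10. These are matches of letters, not measured binding.

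Levels of different genes were compared as RPKM, reads scaled to the length of the canonical transcript and to the total reads on genes. CYR61 led with an RPKM of 966 ± 24.3 (SD, n = 3) in NS shRNA cells, 908 ± 9.68 (SD, n = 3) with ASAH1 shRNA #1 and 1112 ± 18.3 (SD, n = 3) with ASAH1 shRNA #2, and it alone took 0.220% of all reads in NS shRNA cells. ANKRD1, a nuclear ankyrin repeat protein gene, followed with 327 ± 5.33 in NS shRNA cells. CTGF had 84.1 ± 1.66 and AJUBA had 80.0 ± 3.24, and the libraries of these neighbours overlapped. Next came YAP1 with 49.2 ± 3.93, AMOTL2 with 36.3 ± 0.59, TEAD1 with 25.0 ± 2.48, WWTR1 with 16.1 ± 1.26, LATS2 with 10.5 ± 1.18 and TEAD4 with 7.55 ± 0.38, and each of these neighbours was apart in all 3 libraries. The target genes thus ran from the highest level to nearly the lowest.

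Among the 10 genes, ANKRD1 ranked 2 with NS shRNA and ASAH1 shRNA #1 and 3 with ASAH1 shRNA #2. With ASAH1 shRNA #1 it stood at 336 ± 1.66, after CYR61, and with ASAH1 shRNA #2 at 122 ± 3.01, below AJUBA at 131 ± 3.52. With NS shRNA, ASAH1 shRNA #1 and ASAH1 shRNA #2, AJUBA ranked 4, 3 and 2 and CTGF 3, 4 and 5. TEAD1 moved above AMOTL2 with ASAH1 shRNA #2, at 37.4 ± 3.54 against 32.0 ± 1.03. The neighbours whose libraries overlapped were TEAD4 and LATS2 with ASAH1 shRNA #1, and YAP1 and CTGF with ASAH1 shRNA #2. With the merged length of all exons in place of the canonical transcript, ANKRD1 was second in all 3 groups (122 against 92.6 for AJUBA with ASAH1 shRNA #2), LATS2 stood beside WWTR1 in NS shRNA cells (10.3 against 9.74, overlapping), and CTGF and AJUBA no longer overlapped there, so the order depends on the length taken.

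**Figure D1:**
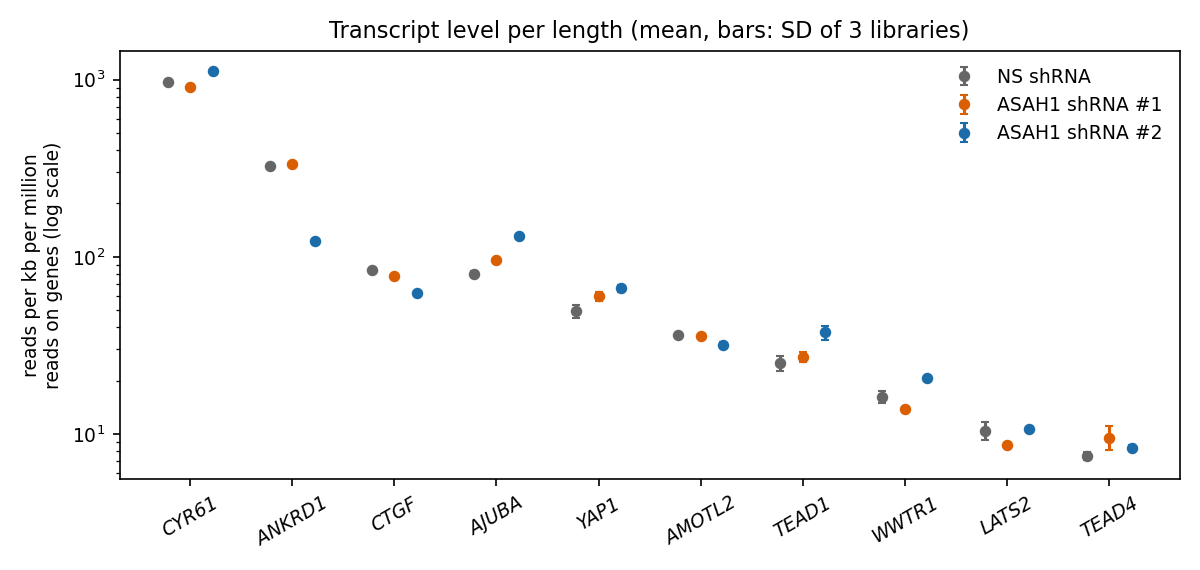
Transcript level of each gene, in RPKM, reads scaled to the canonical transcript's length and to total reads on genes (log axis), with points at the mean and bars for the SD of 3 libraries in NS shRNA, ASAH1 shRNA #1 and ASAH1 shRNA #2 cells. CYR61 is highest in each group, and ANKRD1 stands at 327, 336 and 122 in the 3 groups.

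The first question was whether each hairpin moved the module against NS shRNA. With ASAH1 shRNA #1, YAP1, TEAD4 and AJUBA rose, WWTR1, CYR61, CTGF and LATS2 fell, and TEAD1, ANKRD1 and AMOTL2 were not called, that is 3 higher, 4 lower and 3 not called by limma at an adjusted p below 0.05. Of all 14341 genes tested, 32.8% were called higher and 33.3% lower, so 3 and 4 of 10 lie near the shares of all genes. The 4 lower became 2 on the scale of total reads and without any 1 of the ASAH1 shRNA #1 libraries. The 3 NS and 3 hairpin libraries did not overlap for 7 of the 10 genes, against 69.2% of all genes. With ASAH1 shRNA #2, YAP1, WWTR1, TEAD1, TEAD4, CYR61 and AJUBA rose, CTGF and ANKRD1 fell, and AMOTL2 and LATS2 were not called, that is 6 higher, 2 lower and 2 not called. Of the 14250 genes tested there, 33.5% were called higher and 33.4% lower, and libraries did not overlap for 8 of the 10 genes against 70.0% of all genes. The median log2 fold change of the 10 genes was -0.01 with ASAH1 shRNA #1 and 0.30 with ASAH1 shRNA #2, beside 0.0013 and 0.013 over all genes tested. Both comparisons share the NS shRNA libraries. In bulk RNA, fewer cells with a transcript and less of it per cell cannot be told apart.

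The size factors matter for the second comparison. When the values were rescaled to total reads on genes, the median of all genes with ASAH1 shRNA #2 moved to -0.12 and the calls from 4780 higher and 4758 lower to 3638 higher and 5914 lower, and the members stood at 5 higher and 3 lower. Relative to ACTB, which itself fell with each hairpin by a log2 fold change of -0.89 and -0.52, all 10 genes were called higher with ASAH1 shRNA #1, where the median of all genes became 0.89 (0.53 with ASAH1 shRNA #2) and each of the other lists below had 0 genes lower. Directions given for CYR61, CTGF, WWTR1, AMOTL2 and LATS2 with ASAH1 shRNA #1, and for CTGF and AMOTL2 with ASAH1 shRNA #2, turn on that scale, and are relative to the bulk of genes.

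**Figure D2:**
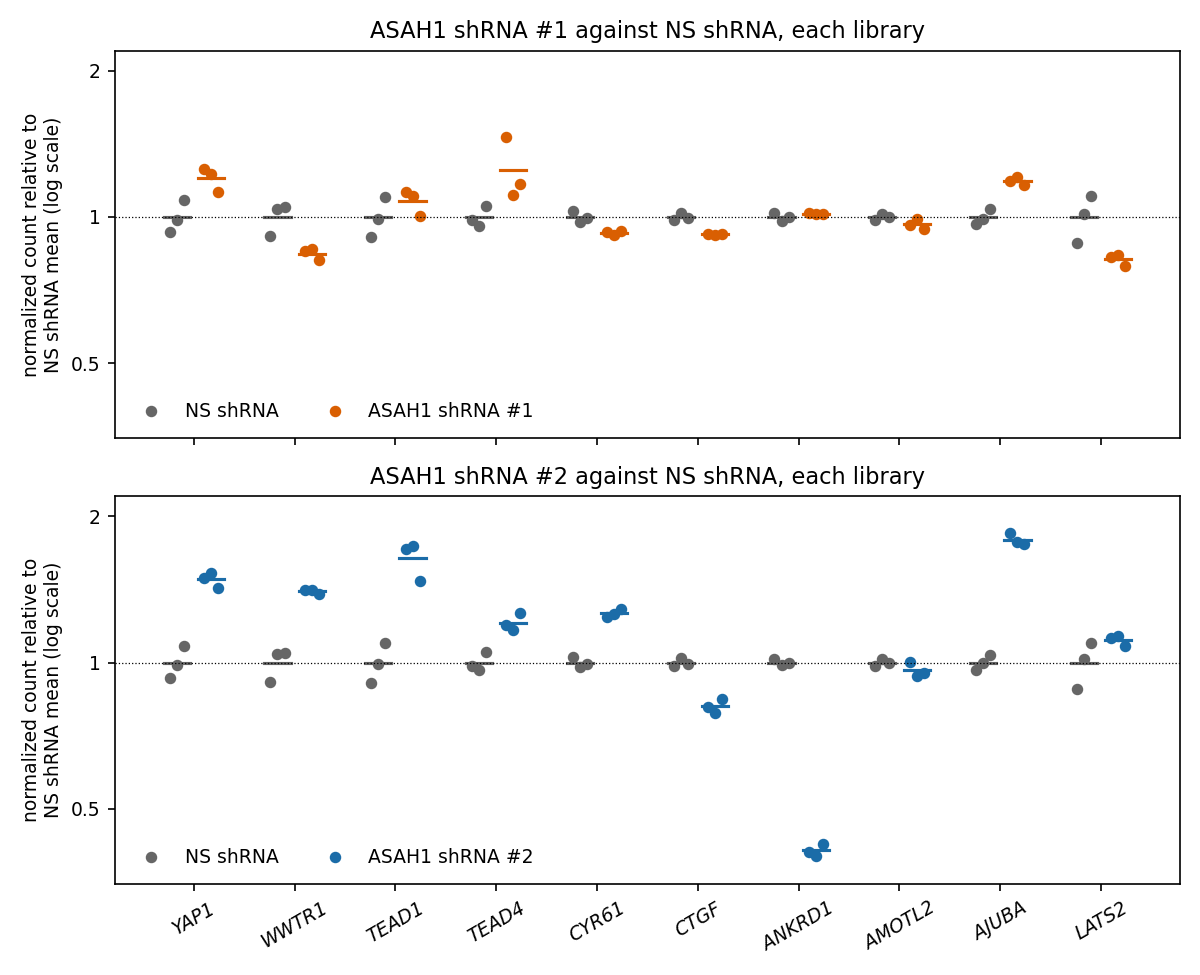
Normalized count of each gene in each library divided by its mean in NS shRNA libraries (log axis), with short lines at group means, for ASAH1 shRNA #1 (upper panel) and ASAH1 shRNA #2 (lower panel). The 3 ASAH1 shRNA #2 libraries of ANKRD1 sit far below NS shRNA, while those of AJUBA, TEAD1, YAP1 and WWTR1 sit above it.

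Among the coactivators, YAP1 had normalized counts (reads divided by a size factor) of 8016, 8449 and 9300 in NS shRNA replicates 1, 2 and 3 and 10785, 10546 and 9648 with ASAH1 shRNA #1. In the other table, with its own size factors, it had 8649, 9171 and 10027 with NS shRNA and 13880, 14213 and 13217 with ASAH1 shRNA #2. Every hairpin library lay above every NS library in each comparison. This gave a log2 fold change of 0.27 (standard error, SE, 0.06, limma adjusted p = 0.00503) with ASAH1 shRNA #1 and 0.57 (SE 0.06, limma adjusted p = 1.77e-05) with ASAH1 shRNA #2.

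WWTR1 moved in opposite directions. It had 2402, 2727 and 2755 with NS shRNA and 2236, 2256 and 2139 with ASAH1 shRNA #1, with all 3 hairpin libraries below the NS range. In the second table it had 2592, 2960 and 2970 with NS shRNA and 4009, 4001 and 3940 with ASAH1 shRNA #2, all 3 above. The log2 fold changes were -0.25 (SE 0.06, limma adjusted p = 0.00632) and 0.49 (SE 0.06, limma adjusted p = 6.53e-05).

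A ratio taken within a library does not depend on the size factor. The log2 ratio of WWTR1 to YAP1 differed between ASAH1 shRNA #1 and NS shRNA by -0.51 (SE 0.05, n = 3, two-sided exact permutation p = 0.1, the smallest that 3 against 3 libraries can give), and no library of either group overlapped the other. With ASAH1 shRNA #2 it differed by -0.08 (SE 0.05, n = 3, exact permutation p = 0.2), with overlapping libraries. Per length, YAP1 made up 75.3% ± 0.87 (SD, n = 3) of the YAP1 and WWTR1 transcript in NS shRNA cells, 81.3% ± 0.51 with ASAH1 shRNA #1 and 76.3% ± 0.52 with ASAH1 shRNA #2. With merged exon lengths these shares were 81.2%, 86.1% and 82.1%, in the same order.

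TEAD1, the TEAD factor with the highest level per canonical length, had normalized counts of 6920, 7531 and 8365 with NS shRNA and 8579, 8419 and 7635 with ASAH1 shRNA #1. These groups overlapped, and the log2 fold change of 0.11 (SE 0.07, limma adjusted p = 0.200) was not called, though without NS shRNA replicate 3 it was 0.18 (adjusted p = 0.0238) and without NS shRNA replicate 1 it was 0.047 (adjusted p = 0.576). In the second table it had 7467, 8175 and 9019 with NS shRNA and 14080, 14297 and 12092 with the hairpin, with each hairpin library above the NS range. That log2 fold change was 0.71 (SE 0.08, limma adjusted p = 2.49e-05).

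TEAD4, the TEAD factor with the lowest level, had 412, 400 and 439 with NS shRNA and 611, 463 and 489 with ASAH1 shRNA #1. All hairpin libraries were above the NS range, and replicate 1 stood well above the other two. The log2 fold change of 0.31 (SE 0.11, limma adjusted p = 0.0268) was 0.19 (adjusted p = 0.0896) without ASAH1 shRNA #1 replicate 1, and the call was also lost without NS shRNA replicate 1 (adjusted p = 0.0688) or replicate 2 (adjusted p = 0.0892). In the second table, counts of 445, 435 and 474 with NS shRNA stood against 538, 527 and 570 with ASAH1 shRNA #2, again without overlap. Its log2 fold change there was 0.27 (SE 0.08, limma adjusted p = 0.0111), and on the scale of total reads it was 0.14 (adjusted p = 0.153).

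The makeup of the TEAD family was taken per length, since its members differ in length. TEAD1 made up 36.2% ± 1.87 (SD, n = 3) of TEAD transcript per length in NS shRNA cells, 36.8% ± 0.93 with ASAH1 shRNA #1 and 43.1% ± 2.18 with ASAH1 shRNA #2. TEAD3, which was close behind TEAD1 in NS shRNA cells at 34.2% ± 1.15, was at 34.6% ± 0.93 and 25.9% ± 0.50. TEAD2 was at 18.7% ± 1.25, 15.7% ± 0.89 and 21.3% ± 1.20, and TEAD4 at 11.0% ± 0.20, 12.8% ± 1.42 and 9.63% ± 0.81. With merged exon lengths TEAD3 led the family in NS shRNA cells (38.4% against 36.5% for TEAD1), and TEAD1 led with ASAH1 shRNA #2 on either length. The log2 ratio of TEAD4 to TEAD1 differed from NS shRNA by 0.20 with ASAH1 shRNA #1 (SE 0.12, n = 3, two-sided exact permutation p = 0.2) and by -0.44 with ASAH1 shRNA #2 (SE 0.13, n = 3, exact permutation p = 0.1, the smallest possible).

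**Figure D3:**
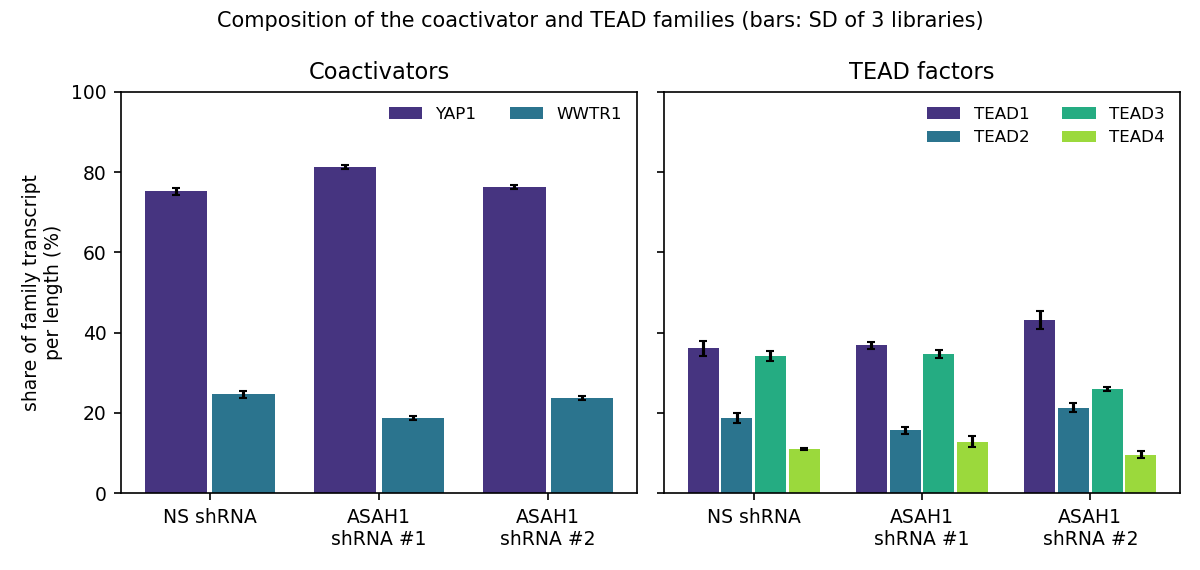
Share of each gene in the transcript of its family, per canonical length and in percent, with bars at the mean and error bars for the SD of 3 libraries, for YAP1 and WWTR1 (left) and TEAD1 to TEAD4 (right) in the 3 groups. The YAP1 share is 75.3%, 81.3% and 76.3%, and the TEAD1 share is 36.2%, 36.8% and 43.1%.

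CYR61 and CTGF encode related secreted proteins of the CCN family and are the most used readouts of YAP and TAZ. CYR61 had 73160, 69321 and 70759 with NS shRNA and 66106, 65284 and 66647 with ASAH1 shRNA #1, all hairpin libraries being lower. The log2 fold change of -0.11 (SE 0.04, limma adjusted p = 0.0431) was close to the threshold. It was not called when any 1 library other than NS shRNA replicate 2 was left out (values from -0.12 to -0.09 over all such fits). The second table gave 78943, 75248 and 76292 with NS shRNA against 95599, 96710 and 98920 with ASAH1 shRNA #2, with every hairpin library higher, and the log2 fold change was 0.34 (SE 0.05, limma adjusted p = 0.000105).

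CTGF was lower with each hairpin. It had 6252, 6480 and 6327 with NS shRNA and 5857, 5834 and 5863 with ASAH1 shRNA #1, and 6746, 7034 and 6822 against 5556, 5421 and 5772 in the comparison with ASAH1 shRNA #2. Neither comparison had overlapping libraries. The log2 fold change was -0.12 (SE 0.04, limma adjusted p = 0.0283) with ASAH1 shRNA #1, where the call was lost without NS shRNA replicate 2 (adjusted p = 0.0985) or without any 1 of the hairpin libraries (adjusted p between 0.0620 and 0.101), and on the scale of total reads (adjusted p = 0.0549). With ASAH1 shRNA #2 it was -0.30 (SE 0.05, limma adjusted p = 0.000431).

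CYR61 and CTGF were called in opposite directions with ASAH1 shRNA #2. The log2 ratio of CTGF to CYR61 differed from NS shRNA by -0.64 (SE 0.04, n = 3, two-sided exact permutation p = 0.1, the smallest possible), without overlap, and differed by -0.01 with ASAH1 shRNA #1 (SE 0.04, n = 3, exact permutation p = 0.7).

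ANKRD1 gave the largest change of the 10 genes. It had 19238, 18562 and 18887 with NS shRNA and 19234, 19128 and 19193 with ASAH1 shRNA #1, values that overlapped within a narrow range. In the second table, 20759, 20149 and 20364 with NS shRNA stood against 8320, 8172 and 8662 with ASAH1 shRNA #2. So all 3 ASAH1 shRNA #2 libraries were far below the NS shRNA libraries. ANKRD1 had a log2 fold change of 0.02 (SE 0.04, limma adjusted p = 0.636, not called) with ASAH1 shRNA #1 and -1.28 (SE 0.05, limma adjusted p = 1.60e-08) with ASAH1 shRNA #2.

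Feedback members of the pathway followed no single direction. AJUBA, a LIM-domain scaffold that binds LATS kinases, had 10429, 10691 and 11208 with NS shRNA and 12767, 13000 and 12566 with ASAH1 shRNA #1. In the second table it had 11254, 11605 and 12085 against 21539, 20658 and 20457 with ASAH1 shRNA #2. AJUBA was thus higher in all libraries of each hairpin, with log2 fold changes of 0.25 (SE 0.04, limma adjusted p = 0.00085) and 0.84 (SE 0.05, limma adjusted p = 2.83e-07), the latter the largest increase among the 10 genes. In GENCODE v44 an unnamed gene model on the same strand overlaps the second upstream window of AJUBA, without an exon there. Reads were counted on UCSC genes. Any reads that fit both could not be told apart, and how many did was not tested.

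LATS2, a kinase that phosphorylates YAP and TAZ, had 1658, 1897 and 2066 with NS shRNA and 1550, 1563 and 1483 with ASAH1 shRNA #1, all 3 below the NS range, for a log2 fold change of -0.28 (SE 0.08, limma adjusted p = 0.00950). In the second table it had 1789, 2059 and 2228 against 2282, 2298 and 2194, with replicate 3 of the hairpin inside the NS range, and the log2 fold change of 0.16 (SE 0.08, limma adjusted p = 0.0942) was not called, though without NS shRNA replicate 3 it was 0.23 (adjusted p = 0.0166), without NS shRNA replicate 1 it was 0.076 (adjusted p = 0.348) and on the scale of total reads 0.028 (adjusted p = 0.776). NS shRNA replicate 1 was the lowest and replicate 3 the highest of the NS libraries for LATS2, as for YAP1, WWTR1, TEAD1 and AJUBA. Replicate 3 of each hairpin was the lowest of its group for these genes, so their calls are not independent of one another. ACTB had the reverse order among the NS libraries.

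AMOTL2, an angiomotin that binds YAP, was called in neither comparison. It had 5635, 5795 and 5720 with NS shRNA and 5504, 5652 and 5405 with ASAH1 shRNA #1, and 6080, 6291 and 6167 against 6204, 5799 and 5894 with ASAH1 shRNA #2. The groups overlapped in each comparison. The log2 fold changes of -0.05 (SE 0.04, limma adjusted p = 0.321) and -0.05 (SE 0.05, limma adjusted p = 0.400) were not called. On the scale of total reads the second was -0.19 (adjusted p = 0.00839).

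**Figure D4:**
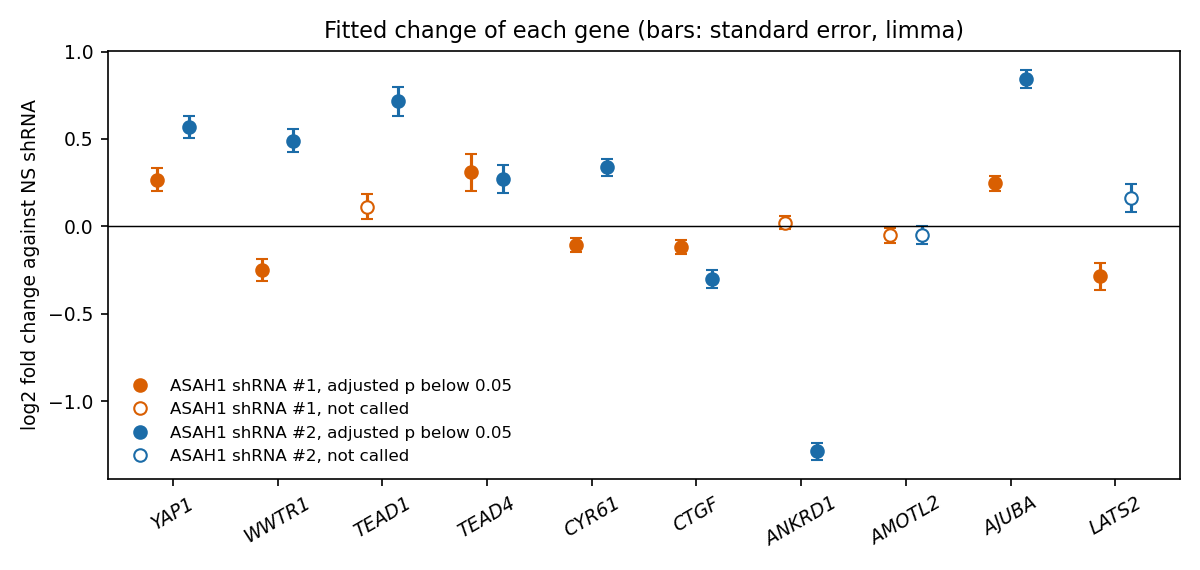
Log2 fold change against NS shRNA of each gene with ASAH1 shRNA #1 and ASAH1 shRNA #2, with bars for the standard error from limma, filled where the adjusted p was below 0.05. WWTR1 and CYR61 lie on opposite sides of 0 for the 2 hairpins, and ANKRD1 lies at 0.02 and -1.28.

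The second question was whether the hairpins differed from each other, tested by edgeR's quasi-likelihood test in 1 fit of all 9 libraries. Of 14714 genes tested, 31.1% were higher with ASAH1 shRNA #2 than with ASAH1 shRNA #1 and 32.1% lower. Of the 10 genes, 6 were higher and 2 lower with ASAH1 shRNA #2. WWTR1 differed most among the higher, by 0.73 on the log2 scale (95% interval 0.61 to 0.86, adjusted p = 7.18e-07 from edgeR), followed by TEAD1 with 0.60 (adjusted p = 5.01e-05), AJUBA with 0.59 (adjusted p = 2.73e-07), LATS2 with 0.44 (adjusted p = 0.000213), CYR61 with 0.44 (adjusted p = 6.93e-07) and YAP1 with 0.30 (adjusted p = 0.00115). ANKRD1 was lower by a log2 ratio of -1.31 (95% interval -1.40 to -1.23, adjusted p = 3.70e-10 from edgeR) and CTGF by -0.19 (adjusted p = 0.00246). TEAD4 and AMOTL2 were not called, with log2 ratios of -0.04 (interval -0.25 to 0.17, adjusted p = 0.709) and -0.01 (interval -0.10 to 0.09, adjusted p = 0.891). So 8 of the 10 genes were called, beside 63.3% of all genes tested. These ratios depend on the scale. On total reads, where the median of all genes was -0.15, 5 members were higher and 3 lower, since YAP1 was not called (0.15, adjusted p = 0.0566 from edgeR) and AMOTL2 was called lower (-0.15, adjusted p = 0.0106), and the calls over all genes went from 4581 higher and 4730 lower to 3140 and 6318. Relative to ACTB, 2 members were higher (WWTR1 and AJUBA) and 4 lower (TEAD4, CTGF, ANKRD1 and AMOTL2), with YAP1 at -0.065, against 1510 higher and 8538 lower of all genes and a median of -0.36 over them. WWTR1, AJUBA, CTGF and ANKRD1 were called in 1 direction on all 3 scales. ASAH1 was itself lower with ASAH1 shRNA #2, by a log2 ratio of -0.88.

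The other genes of the pathway were taken from lists chosen by name. The counts of each list below stand beside the shares called among all genes tested. With ASAH1 shRNA #1 these shares were 32.8% higher and 33.3% lower, and with ASAH1 shRNA #2 they were 33.5% and 33.4%. Of 23 Hippo regulators, 22 were tested (AMOT was not). With ASAH1 shRNA #1, 8 were higher, 11 lower and 3 not called, with a median log2 fold change of -0.11, and with ASAH1 shRNA #2, 11 were higher, 3 lower and 8 not called, with a median of 0.29. On the scale of total reads the latter counts were 8 higher and 5 lower. RASSF1, a scaffold that binds MST kinases, rose from 1659 ± 136 (SD, n = 3) to 3111 ± 214 with ASAH1 shRNA #1 and from 1793 ± 150 to 4200 ± 515 with ASAH1 shRNA #2 (log2 fold changes 0.91 and 1.22, adjusted p = 5.11e-06 and 1.36e-06 from limma). FRMD6 (0.82 and 0.94), an upstream FERM-domain protein, and the kinase gene STK4 (0.61 and 0.71) rose with each hairpin as well. LIMD1, of the same LIM family as AJUBA, fell by log2 fold changes of -0.36 and -0.18, the second of which was not called without NS shRNA replicate 2 (adjusted p = 0.0549).

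The kinase genes at the top of the cascade split. STK3, the paralog of STK4, had a log2 fold change of -0.65 with ASAH1 shRNA #1 and 0.31 with ASAH1 shRNA #2, while MAP4K4, a kinase that acts beside MST, had 0.32 and -0.54. Each differed between the hairpins (adjusted p = 2.69e-08 and 1.55e-07 from edgeR).

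Of the other TEAD and VGLL genes, 4 of 6 were tested (VGLL1 and VGLL2 were not), with 1 higher, 2 lower and 1 not called for ASAH1 shRNA #1 and 2 higher, 1 lower and 1 not called for ASAH1 shRNA #2. VGLL3, whose protein binds TEAD factors without YAP, rose from 307 ± 37.4 (SD, n = 3) to 691 ± 76.8 with ASAH1 shRNA #1 and from 331 ± 39.3 to 565 ± 61.2 with ASAH1 shRNA #2 (log2 fold changes 1.17 and 0.77, adjusted p = 1.42e-05 and 0.000147 from limma). VGLL4, which competes with YAP for TEAD, fell by -0.21 and -0.29. TEAD2 had -0.16 with ASAH1 shRNA #1 and 0.65 with ASAH1 shRNA #2. Its call with ASAH1 shRNA #1 was lost without NS shRNA replicate 1 or 2 or ASAH1 shRNA #1 replicate 2 or 3 (adjusted p between 0.0641 and 0.159).

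Among 17 other YAP and TAZ target genes, 7 were higher, 5 lower and 5 not called with ASAH1 shRNA #1, and 8 were higher, 6 lower and 3 not called with ASAH1 shRNA #2, with medians of -0.10 and 0.16. For ASAH1 shRNA #2, other processing of all libraries gave 6 to 8 higher and 5 to 7 lower, leaving the ACTB scale aside. GADD45A, a stress-response gene, had the largest change of the list, from 1808 ± 210 (SD, n = 3) to 15298 ± 1859 with ASAH1 shRNA #1 and from 1954 ± 228 to 14334 ± 1671 with ASAH1 shRNA #2 (log2 fold changes 3.08 and 2.87). F3, which encodes tissue factor (0.21 and 0.69), and ASAP1 (0.39 and 0.46) also rose with each hairpin. CCDC80 fell by log2 fold changes of -0.51 and -0.51, and ARHGEF17 by -0.54 and -0.42. NUAK2, a kinase gene, rose with ASAH1 shRNA #1 and fell with ASAH1 shRNA #2 (0.65 and -0.86), as did NT5E, which encodes the ectonucleotidase CD73 (0.33 and -0.22), the fall of NT5E being lost without ASAH1 shRNA #2 replicate 1 (adjusted p = 0.0505). This wider set too had calls in each direction for each hairpin, as did all genes tested. Of those, 32.8% were higher and 33.3% lower with ASAH1 shRNA #1, and 33.5% and 33.4% with ASAH1 shRNA #2.

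SRF with its cofactors of the MRTF family shares target genes with YAP and TEAD and responds to actin. Of 11 MRTF-SRF target genes, 4 were higher, 6 lower and 1 not called with ASAH1 shRNA #1 (median -0.28), and of the 10 tested with ASAH1 shRNA #2, 3 were higher, 6 lower and 1 not called (median -0.33). ACTB, the structural gene MYL9 (-0.32 and -0.71) and VCL, which encodes vinculin (-0.31 and -0.70), fell with each hairpin, while FHL2 (1.12 and 1.26) and SRF itself (0.47 and 0.71) rose with each. TAGLN, a smooth muscle actin-binding gene at 215 ± 47.5 (SD, n = 3) with NS shRNA in the first table, had 0.76 with ASAH1 shRNA #1 and -0.93 with ASAH1 shRNA #2.

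**Figure D5:**
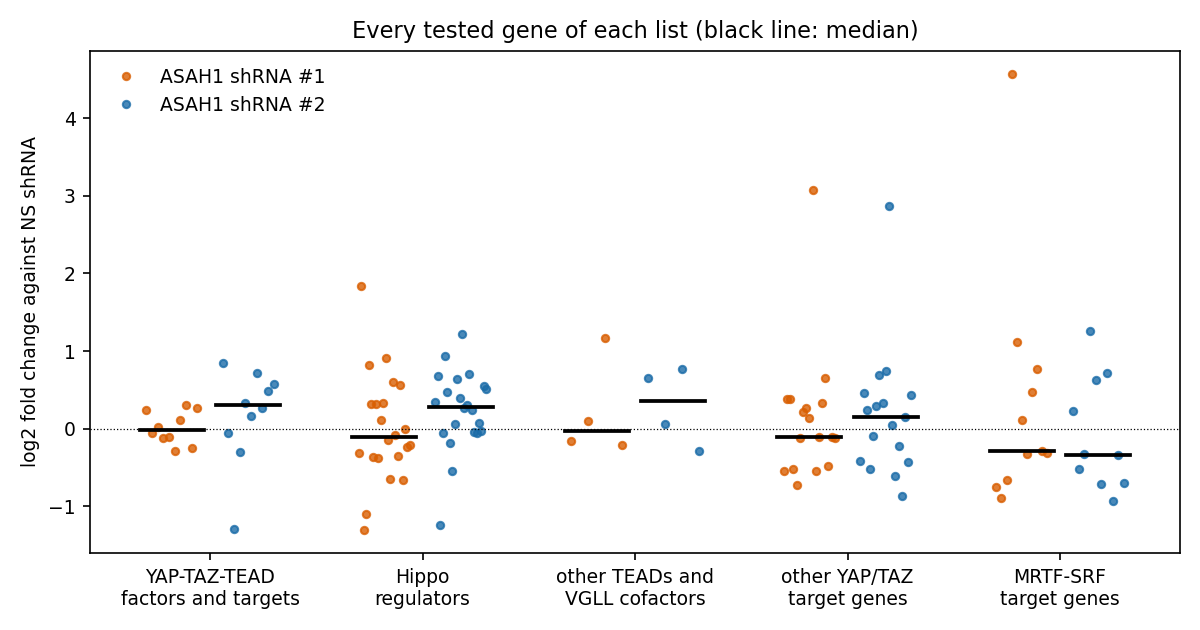
Log2 fold change against NS shRNA of every tested gene of the 10 YAP-TAZ-TEAD factors and targets and of the other lists, with ASAH1 shRNA #1 and ASAH1 shRNA #2, and a black line at each median. Each list holds genes on both sides of 0 for each hairpin, and the median of the 10 genes is -0.01 and 0.30.

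Over the 9 libraries, the genes whose log2 CPM were most like those of YAP1, among the 11610 genes that averaged at least 100 normalized counts, were STK17B (Pearson r = 0.996), RSPRY1 (r = 0.995) and NUFIP2 (r = 0.995). For CYR61 they were DNAJB1 (r = 0.997), CAPZB (r = 0.997) and PTGES3 (r = 0.995). The 9 points form 3 groups and share 1 scaling factor per library, so these values describe a pattern over group levels.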

How the data were processed

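RNA was isolated from MDA-MB-231 cells and sequenced in 9 libraries (3 per group). Per the labels, mRNA was selected with oligo-dT beads and made into strand-specific dUTP libraries, whereas the series' design text names ribosomal RNA depletion with random priming. The authors used Trimmomatic 0.36 for trimming, STAR 2.7.1a for alignment to hg38, HTSeq with strand for counting on UCSC genes, and size factors of DESeq2 1.28 for scaling, in a table of its own for either hairpin beside the NS shRNA libraries. A different pipeline (Bowtie2 and RSEM, then edgeR with TMM) also stands in the methods. The deposited signal is this normalized read count, for 26485 genes, with the mean over libraries. The deposited tables also hold the authors' log2 fold change, its standard error, a Wald statistic (a score) and p-values, none of which was used. All sample columns were matched to the labels. 28 symbols that a spreadsheet had turned into dates were taken from the other table.

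All values were whole reads divided by 1 factor per library (100% within 0.1), so reads were recovered, and NS shRNA reads were the same in each table. Depth sets the precision of genes with few reads, and TEAD4, the least covered member, had 394 to 735 reads per library. Comparisons with NS shRNA used limma 3.58.1 (R 4.3.3) with an intensity trend on log2(normalized count + 1), two-sided, for genes that averaged 10 or more, with Benjamini-Hochberg adjustment at 0.05 over all genes tested. Fold changes are on that scale. The hairpins were compared by edgeR 4.0.16 (quasi-likelihood, TMM) on the recovered reads. Ratios of paralogs were compared by exact permutation. The fits were run on simulated data with few genes changed, as often up as down. Those changes were larger than that of CYR61 or CTGF with ASAH1 shRNA #1, so that test does not reach such small calls. Alternatives were pseudocounts of 0.1 and 5, no filter or a mean of at least 50, no trend, upper quartile rescaling, values relative to ACTB, edgeR and DESeq2 1.42.0 on the reads, 1 fit of 9 libraries, the replicate number as a block and each library left out. Rescaling to total reads, and the ACTB scale between the hairpins, were added after seeing the data.

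The 10 members and the lists were chosen with earlier results of these data known. The text names all members, ASAH1 and ACTB, and of each list the genes with the largest mean change called in 1 direction with each hairpin (up to 3) or in opposite directions (up to 2), at a mean of at least 100, and for YAP1 and CYR61 the 3 genes with the highest Pearson r over 9 libraries. Lengths and positions came from GENCODE v44, and promoter windows from RefSeq GRCh38.p14. Python 3.11.15 with pandas 2.3.3, scipy 1.17.1 and matplotlib 3.10.9 was used.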

Additional observations from a re-analysis of the deposited data

Results flagged for a closer look

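The responses to the 2 hairpins differed for 8 of the 10 genes by edgeR's test of the difference itself in 1 fit of 9 libraries, beside 63.3% of all 14714 genes tested. Relative to ACTB, 6 of the 10 were called, and YAP1, TEAD1, CYR61 and LATS2 were not. The log2 ratio of ASAH1 shRNA #2 to ASAH1 shRNA #1 was 0.73 for WWTR1, which had been called lower with 1 hairpin and higher with the other, and all 3 libraries of each hairpin lay on their own side of NS shRNA. It was 0.44 for CYR61, also called in opposite directions, but its fall with ASAH1 shRNA #1 was small (-0.11, limma adjusted p = 0.0431). That call was kept in 7 of 18 alternative fits, against 17 of 18 for WWTR1. The ratio was 0.44 for LATS2, which was called with ASAH1 shRNA #1 alone, and 0.60 for TEAD1 and -1.31 for ANKRD1, which were called with ASAH1 shRNA #2 alone. It was 0.59 for AJUBA, 0.30 for YAP1 and -0.19 for CTGF, which were called in the same direction with each hairpin with each change against NS shRNA larger with ASAH1 shRNA #2.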

How the results depend on the processing

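Of the 10 members, 8 differed between the hairpins under each alternative except that relative to ACTB, which gave 6. The 8 were not the same genes on the scale of total reads, where YAP1 was lost (0.15) and AMOTL2 gained (-0.15). Relative to ACTB the ratio of YAP1 turned to -0.065 (adjusted p = 0.557 from edgeR), the calls of TEAD1 (0.24), CYR61 (0.078) and LATS2 (0.080) were lost and those of TEAD4 (-0.41) and AMOTL2 (-0.37) gained. With ASAH1 shRNA #2, 6 to 7 members were higher and 2 lower when 1 library was left out. With ASAH1 shRNA #1, 2 to 4 were higher, and the 4 lower became 2 to 3 with 1 library left out, 2 by limma without the trend, 2 with the replicate block and 2 after total read rescaling, in each case through the small changes of CYR61 and CTGF. Relative to ACTB, members stood at 10 higher and 0 lower with ASAH1 shRNA #1 and 1 lower with ASAH1 shRNA #2, and all genes at 12224 higher and 446 lower, and 9280 higher and 1582 lower. With ASAH1 shRNA #2, more members were higher on that scale than in the main fit. CTGF (adjusted p = 0.00930 from limma), AMOTL2 (adjusted p = 5.36e-05) and LATS2 (0.68, adjusted p = 8.33e-05) were called higher as well. On that scale the changes of WWTR1 (0.64), CYR61 (0.78), CTGF (0.77), AMOTL2 (0.84) and LATS2 (0.60) with ASAH1 shRNA #1 and of CTGF (0.22) and AMOTL2 (0.47) with ASAH1 shRNA #2 turned, by construction, since ACTB fell. The ratio between hairpins, not called, ran from -0.13 to 0.078 for TEAD4 and from -0.033 to 0.014 for AMOTL2 with 1 library left out. Same-numbered libraries did not deviate together (correlations from -0.69 to -0.16), so the numbers do not pair them. Differently numbered libraries ran from -0.36 to 0.62, the highest for NS shRNA replicate 3 with ASAH1 shRNA #2 replicate 2. Some deviations were thus shared across groups, and their source was not tested. The replicate block ended the calls of CYR61 (adjusted p = 0.143 from limma) and CTGF (adjusted p = 0.135) with ASAH1 shRNA #1, of TEAD2 with ASAH1 shRNA #1 (adjusted p = 0.119) and of LIMD1 with ASAH1 shRNA #2 (adjusted p = 0.0839). Further limits are the single line, 3 libraries per group, and that permutation of 3 against 3 libraries cannot give a p below 0.1.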
